A study of Mus musculus with 18 samples.

Results

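In this series, 10 genes of the insulin receptor to FoxO route were described in C2C12 myotubes, the multinucleate fibres that the mouse C2C12 myoblast line forms when it differentiates. They were the receptors Insr and Igf1r, the docking proteins Irs1 and Irs2, the PI3K regulatory subunit gene Pik3r1, the kinases Akt1 and Akt2, and the transcription factors Foxo1, Foxo3 and Foxo4. Members were taken by gene symbol in the array's probe annotation, which gave 22 probes for the 10 genes, of 45281 probes and 19057 named genes on the array. No member was removed by a filter on low values. The study asked which genes respond to dexamethasone (Dex), a synthetic glucocorticoid that activates the glucocorticoid receptor. Myotubes in DMEM with 2% horse serum received 1 uM Dex or the same volume of ethanol, its solvent, at 0.01% of the medium, for 6 or 24 h. Total RNA (750 ng per labelling) was hybridised to Illumina mouseWG-6 bead arrays. There were 4 ethanol and 4 Dex arrays at 6 h, and 5 ethanol and 5 Dex arrays at 24 h, by the labels' numbering, whereas the design text speaks of triplicates. Each n below counts arrays as the labels number them. All groups are the same established line with the same serum, and the labels name no gene alteration and no added insulin or IGF-I. RNA levels were measured, not protein or phosphorylation.

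In muscle, insulin or IGF-I activates its receptor tyrosine kinase, which phosphorylates the docking proteins Irs1 and Irs2. These recruit PI3K through the regulatory subunit coded by Pik3r1, the lipid product activates Akt, and Akt keeps FoxO factors out of the nucleus. In the nucleus, FoxO factors drive genes of muscle protein breakdown and fuel switching, and glucocorticoids are known to oppose insulin action in this tissue.

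Values below are the deposited linear intensities, in arbitrary units, listed in replicate order. A difference is log2 of Dex over ethanol with its standard error (SE), from limma's moderated test on all probes, with Benjamini-Hochberg adjustment over the 45281 probes and a threshold of 0.05. Each gene was counted by its brightest probe. The 8 arrays of 6 h had median intensities of 99.8 to 100.4 and the 10 arrays of 24 h 85.2 to 86.8, so levels were not compared between times. Of the 22 probes, 14 stayed below the upper quartile of their array on all 18 arrays, and for such dim probes background light makes the fold change too small. The labels number the replicates but do not say that they were separate cultures, so the p-values measure the spread between these arrays, which may be technical. In whole-culture RNA, more cells of a type and more RNA per cell cannot be told apart. The known Dex-responsive genes Fkbp5 and Tsc22d3 were higher by 3.93 and 1.70 (log2) at 6 h and by 3.40 and 1.43 at 24 h. All 10 measured myotube markers, such as Ckm and Ttn, reached the upper quartile of an array.

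At 6 h, Insr, Irs2, Pik3r1 and Foxo3 rose with Dex, and at 24 h these 4 and Igf1r rose. No member was called lower at either time, beside 4.04% of all genes at 6 h and 7.73% at 24 h. At such shares few or none of 10 genes would be called lower, so this does not set the members apart. The difference was above 0 for 6 of the 10 genes at 6 h and for 8 at 24 h. Irs2 had the largest difference among the 10 genes at both times, 1.79-fold at 6 h and 1.90-fold at 24 h, followed by Pik3r1 with 1.43-fold and 1.65-fold. Irs1, Akt1, Akt2, Foxo1 and Foxo4 did not pass the test at either time. The 4 of 10 genes called higher at 6 h compare with 4.31% of all genes, and the 5 of 10 at 24 h with 8.05%. Because the members were chosen with earlier results of these data known, this comparison is a description and not a test. The median difference of the 10 genes was 0.09 at 6 h, against 0.003 for all genes, and 0.19 at 24 h, against 0.

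**Figure D1:**
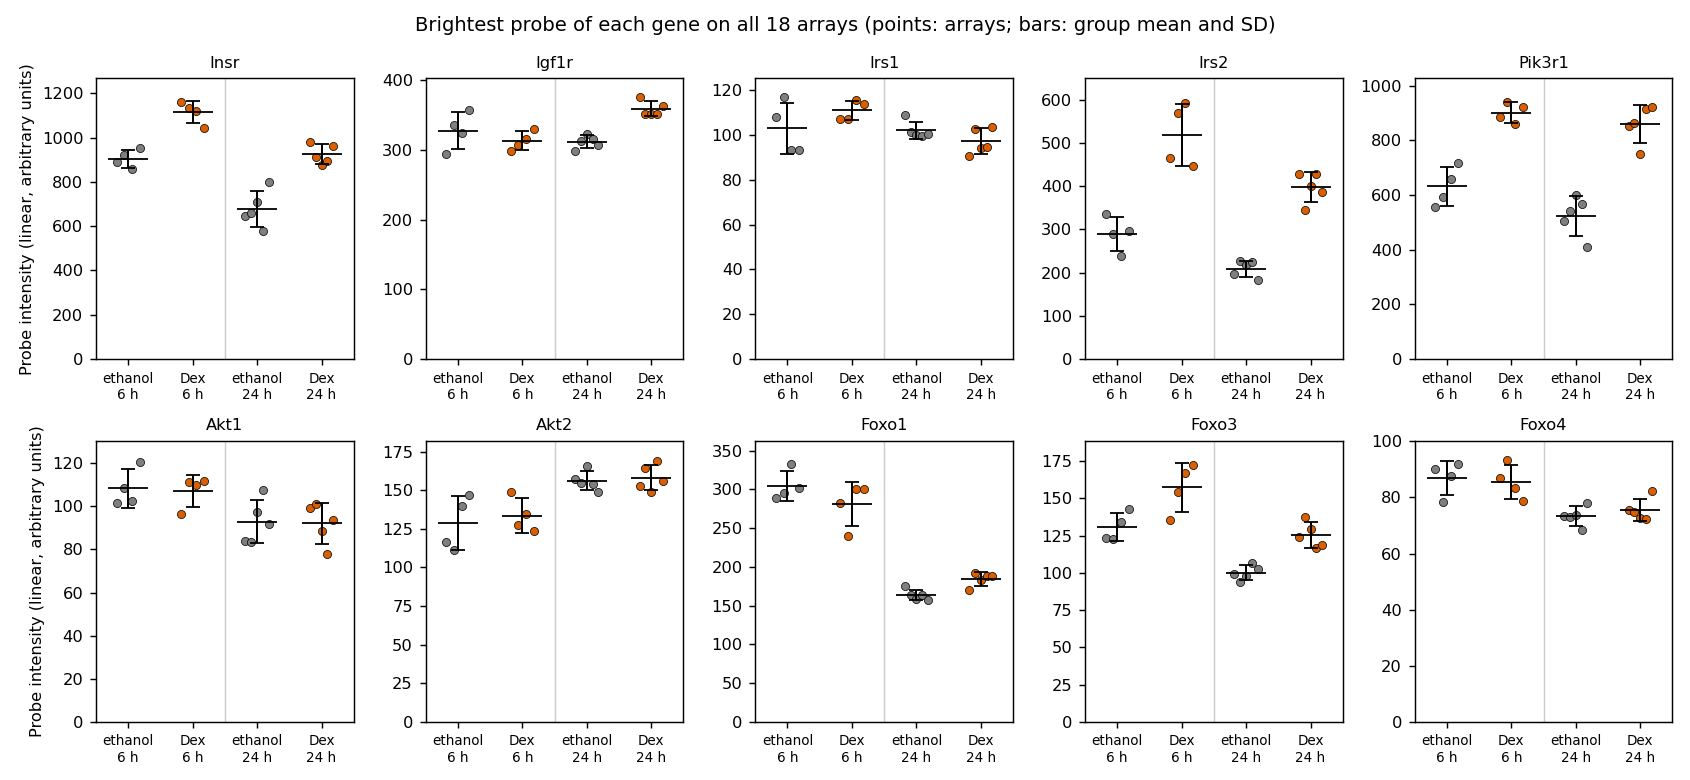
Linear intensity of the brightest probe of each gene (y axis, arbitrary units, from 0) on every array of the 4 groups (x axis), with grey points for ethanol, orange points for Dex, and bars for the group mean and SD. The Dex points of Insr, Irs2 and Pik3r1 lie above all ethanol points at both times, those of Igf1r and Foxo3 do so at 24 h, and those of Irs1, Akt1, Akt2, Foxo1 and Foxo4 overlap the ethanol points.

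Insr codes for the insulin receptor. Its brightest probe (ILMN_1242794) read 889, 920.2, 859 and 953 in ethanol at 6 h, and 1163, 1135, 1121 and 1046 with Dex. Every Dex array was above every ethanol array, and the difference was 0.30 (SE 0.07, adjusted p = 0.0122). At 24 h ethanol arrays read 648, 658, 709, 577 and 798, and Dex arrays read 979, 914, 877, 897 and 964. The groups again did not overlap, and Insr rose by 0.46 (SE 0.07, adjusted p = 2.95e-05). The 6 h call was lost when residual directions that hold almost no spread were taken out of the fit (adjusted p = 0.0577), when most of each array's lowest value was subtracted (0.0784), and when the 3 Insr probes were averaged (0.134). The other 2 Insr probes lay near the array median, with group means of 77.4 to 112, and did not pass the test (differences of 0.10 and -0.11 at 6 h and of -0.05 and 0.06 at 24 h). The Insr rise therefore rests on 1 of its 3 probes.

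Igf1r codes for the IGF-I receptor, the close relative of the insulin receptor. At 6 h its brightest probe (ILMN_1249824) averaged 327 ± 26.1 in ethanol and 313 ± 13.6 with Dex (SD, n = 4 each), a difference of -0.06 (adjusted p = 0.619). At 24 h the ethanol arrays read 299, 312, 323, 316 and 307, and the Dex arrays 376, 351, 352, 352 and 363. The lowest Dex array exceeded the highest ethanol array, and Igf1r rose by 0.20 (SE 0.05, adjusted p = 0.0104). This call was lost without the near-empty residual directions (adjusted p = 0.0681) and without both 24 h arrays numbered 1 (0.0727). Of its 3 other probes, the next brightest differed by 0.17 at 24 h (adjusted p = 0.0933) and the remaining pair by 0.06 and 0.02.

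Stretches of the promoters of both Irs genes are shown because Irs2 moved and Irs1 did not pass the test, and because these were the only member windows with the E-box CACGTG, a motif read by basic helix-loop-helix proteins (the same on both strands, in capitals). They come from RefSeq on GRCm38.p6, 5′ to 3′ on the gene's strand, from windows of 250 bases before the annotated start.
Irs1, chr1:82291527-82291576, minus strand: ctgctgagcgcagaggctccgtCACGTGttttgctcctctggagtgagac
Irs2, chr8:11008946-11008995, minus strand: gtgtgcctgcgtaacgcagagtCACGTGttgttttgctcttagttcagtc
The motif begins 115 bases before the Irs1 start and 44 bases before the Irs2 start, and 6.02% of the 32851 windows of all genes hold it. The motif was in a window of both genes, and its part in the Irs2 rise was not tested.

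Irs2 codes for the docking protein that carries much of insulin's metabolic signal in liver and is also present in muscle. Its single probe read 334, 288, 238 and 296 in ethanol at 6 h, and 466, 569, 592 and 447 with Dex. No Dex array came down to the ethanol range, and Irs2 rose by 0.84 (SE 0.10, adjusted p = 3.26e-06). In the 24 h groups the ethanol arrays read 198, 226, 217, 224 and 183, and the Dex arrays 429, 344, 401, 427 and 387. The gap between groups was again complete, with a rise of 0.93 (SE 0.09, adjusted p = 7.09e-08). The effect at 24 h exceeded that at 6 h by 0.08, with a 95% interval of -0.19 to 0.36 (adjusted p = 0.787). Irs2 kept its call under all 30 alternatives at each time.

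Irs1, the docking protein through which insulin and IGF-I act on muscle glucose uptake and growth, was read by 1 probe close to the array median. At 6 h it averaged 103 ± 11.6 in ethanol and 111 ± 4.36 with Dex (SD, n = 4 each), a difference of 0.12 with a 95% interval of -0.03 to 0.26 (adjusted p = 0.374). The 24 h means were 102 ± 3.95 and 97.2 ± 5.66 (SD, n = 5 each), a difference of -0.07 with an interval of -0.20 to 0.06 (adjusted p = 0.5). The ethanol and Dex arrays overlapped at both times. Since this probe was dim, a change of the Irs1 transcript larger than these intervals could be hidden.

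Pik3r1 codes for the regulatory subunits that hold the PI3K catalytic subunit and dock it on Irs proteins, a long form and shorter forms made from internal starts. The 2 RefSeq starts with a window are 75587 bases apart, and both windows are shown because probes annotated to different Pik3r1 transcripts both moved. Each is the 250 bases before its start, 5′ to 3′ on the gene's strand, GRCm38.p6. No letters are in capitals, because no window of Pik3r1 held any of the motifs searched.
Pik3r1 upstream start, chr13:101768218-101768467, minus strand: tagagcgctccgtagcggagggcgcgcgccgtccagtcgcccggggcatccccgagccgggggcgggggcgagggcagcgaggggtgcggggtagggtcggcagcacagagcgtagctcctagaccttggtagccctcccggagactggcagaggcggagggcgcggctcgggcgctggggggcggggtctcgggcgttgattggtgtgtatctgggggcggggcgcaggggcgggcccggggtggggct
Pik3r1 internal start, chr13:101692631-101692880, minus strand: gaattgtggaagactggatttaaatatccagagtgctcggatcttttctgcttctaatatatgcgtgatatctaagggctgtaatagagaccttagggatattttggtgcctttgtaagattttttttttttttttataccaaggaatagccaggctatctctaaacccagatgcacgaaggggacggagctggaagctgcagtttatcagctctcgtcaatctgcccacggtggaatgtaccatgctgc
The upstream window has a GC content of 76.4% and the internal one of 42.4%, so they are of different kinds by base composition. The probe annotation does not say which start a probe reads.

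The brightest Pik3r1 probe (ILMN_3114641) read 558, 594, 660.1 and 718 in ethanol at 6 h, and 884, 942, 859 and 921 with Dex. Its groups did not overlap, and the rise was 0.52 (SE 0.09, adjusted p = 0.000806). Among the 24 h arrays, ethanol read 507, 542, 599.5, 567 and 409, and Dex 854, 863, 751, 915 and 921. Again no array overlapped, and the rise was 0.72 (SE 0.08, adjusted p = 1.56e-06).

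The second bright probe (ILMN_2473531), annotated to another RefSeq transcript of the gene, read 534, 569, 546 and 576 in ethanol at 6 h, and 676, 867, 708 and 823 with Dex. At 24 h it read 466, 481, 541, 484 and 429.5 in ethanol, and 685, 699.8, 621, 764 and 672 with Dex. It also separated the groups at both times, with rises of 0.46 (SE 0.08, adjusted p = 0.000406) and 0.52 (SE 0.07, adjusted p = 1.26e-05). Around the group means, the 2 bright probes had r = 0.69 over the 18 arrays, a description, since they share RNA and array. Probes of different genes reached similar values, such as 0.68 for Pik3r1 ILMN_3040050 with Akt2 ILMN_2655895. Pik3r1 ILMN_2473531 and Akt2 ILMN_1255147 had r = -0.76. The value of 0.69 is thus not particular to probes of 1 gene. The other 2 Pik3r1 probes had group means of 64.2 to 90.2 and differences between -0.06 and 0.02, none called, although they are annotated to the same transcript as the brightest probe. The effect at 24 h exceeded that at 6 h by 0.20 for the brightest probe, with a 95% interval of -0.06 to 0.46 (adjusted p = 0.395).

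**Figure D2:**
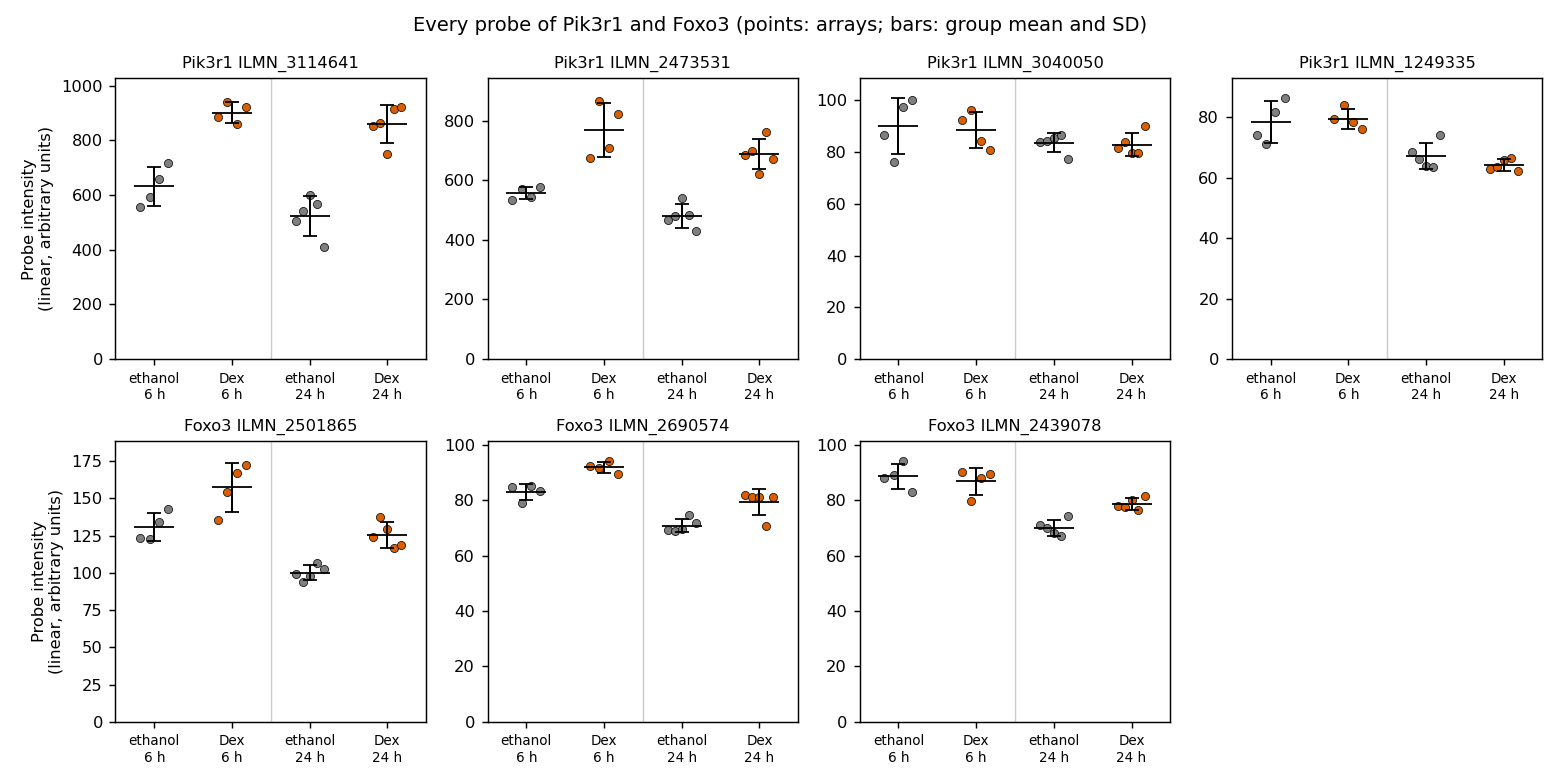
Linear intensity (y axis, arbitrary units, from 0) of all 4 Pik3r1 probes (top row) and all 3 Foxo3 probes (bottom row) on every array, with grey for ethanol, orange for Dex, and bars for the group mean and SD. The 2 Pik3r1 probes with group means above 480 separate the groups at both times, while the 2 with means of 64.2 to 90.2 overlap. At 24 h the groups do not overlap for 2 of the 3 Foxo3 probes.

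The Akt kinases, the branch point from which glucose uptake, protein synthesis and FoxO are controlled, showed no called probe. Akt1, the widely expressed form, averaged 108 ± 8.88 in ethanol and 107 ± 7.37 with Dex at 6 h (SD, n = 4 each), and 92.9 ± 10.1 and 92.1 ± 9.41 at 24 h (SD, n = 5 each). Its differences were -0.01 at both times, with 95% intervals of -0.19 to 0.16 and of -0.17 to 0.15. Akt2, the form most tied to insulin-driven glucose uptake, averaged 129 ± 17.5 and 134 ± 11.1 at 6 h (SD, n = 4 each), and 156 ± 6.18 and 158 ± 8.24 at 24 h (SD, n = 5 each). Its differences were 0.06 (95% interval -0.10 to 0.22) and 0.02 (-0.13 to 0.16). The ethanol and Dex ranges overlapped for every Akt probe. The widest upper bound among these, for Akt2 at 6 h, was 1.17-fold on the intensity scale.

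Of the FoxO factors, Foxo3, which drives atrophy and autophagy genes in muscle, rose at both times. Its brightest probe (ILMN_2501865) read 123, 123, 134 and 143 in ethanol at 6 h, and 135, 155, 167 and 172 with Dex. Here 1 Dex array lay below the highest ethanol array, and the difference was 0.26 (SE 0.07, adjusted p = 0.0304). At 24 h the ethanol arrays read 99.1, 94.2, 97.9, 107 and 103, and the Dex arrays 124, 138, 129.7, 117 and 119. These groups did not overlap, and the rise was 0.32 (SE 0.07, adjusted p = 0.00162).

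The 6 h call for Foxo3 was lost in 10 of 30 alternatives, with adjusted p up to 0.125. Leaving out Dex array 2, 3 or 4, or ethanol array 1 or 2, gave adjusted p of 0.0545, 0.0984, 0.0985, 0.0774 and 0.0814, in that order. The 24 h call held in all 30. The other 2 Foxo3 probes stayed below the median of every array, yet both were called higher at 24 h, by 0.16 (SE 0.05, adjusted p = 0.0323) and 0.17 (SE 0.05, adjusted p = 0.0306). At 6 h they differed by 0.15 (adjusted p = 0.122) and -0.03 (adjusted p = 0.835). All 3 probes of Foxo3 were thus higher at 24 h and 1 of 3 at 6 h.

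Foxo1, which drives Pdk4 and restrains myotube growth, was not called. It read 289, 295, 333 and 302 in ethanol and 283, 240.3, 301 and 301 with Dex at 6 h, a difference of -0.12 (95% interval -0.26 to 0.02, adjusted p = 0.36), with overlapping groups. After 24 h the ethanol arrays read 175, 164, 159, 163 and 158, and the Dex arrays 169.9, 192, 183, 188 and 189. The lowest Dex array fell inside the ethanol range, and the difference of 0.17 had an adjusted p of 0.0675 and a 95% interval of 0.05 to 0.30. It passed the threshold under 5 of 30 alternatives, among them without Dex array 1 of 24 h (adjusted p = 0.0456). Its second probe, with group means of 83.0 to 94, differed by -0.09 and 0.01. Foxo4, the third FoxO factor read here, was below the median on every array, with differences of -0.02 (adjusted p = 0.895) and 0.04 (adjusted p = 0.687) that say little at that brightness.

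**Figure D3:**
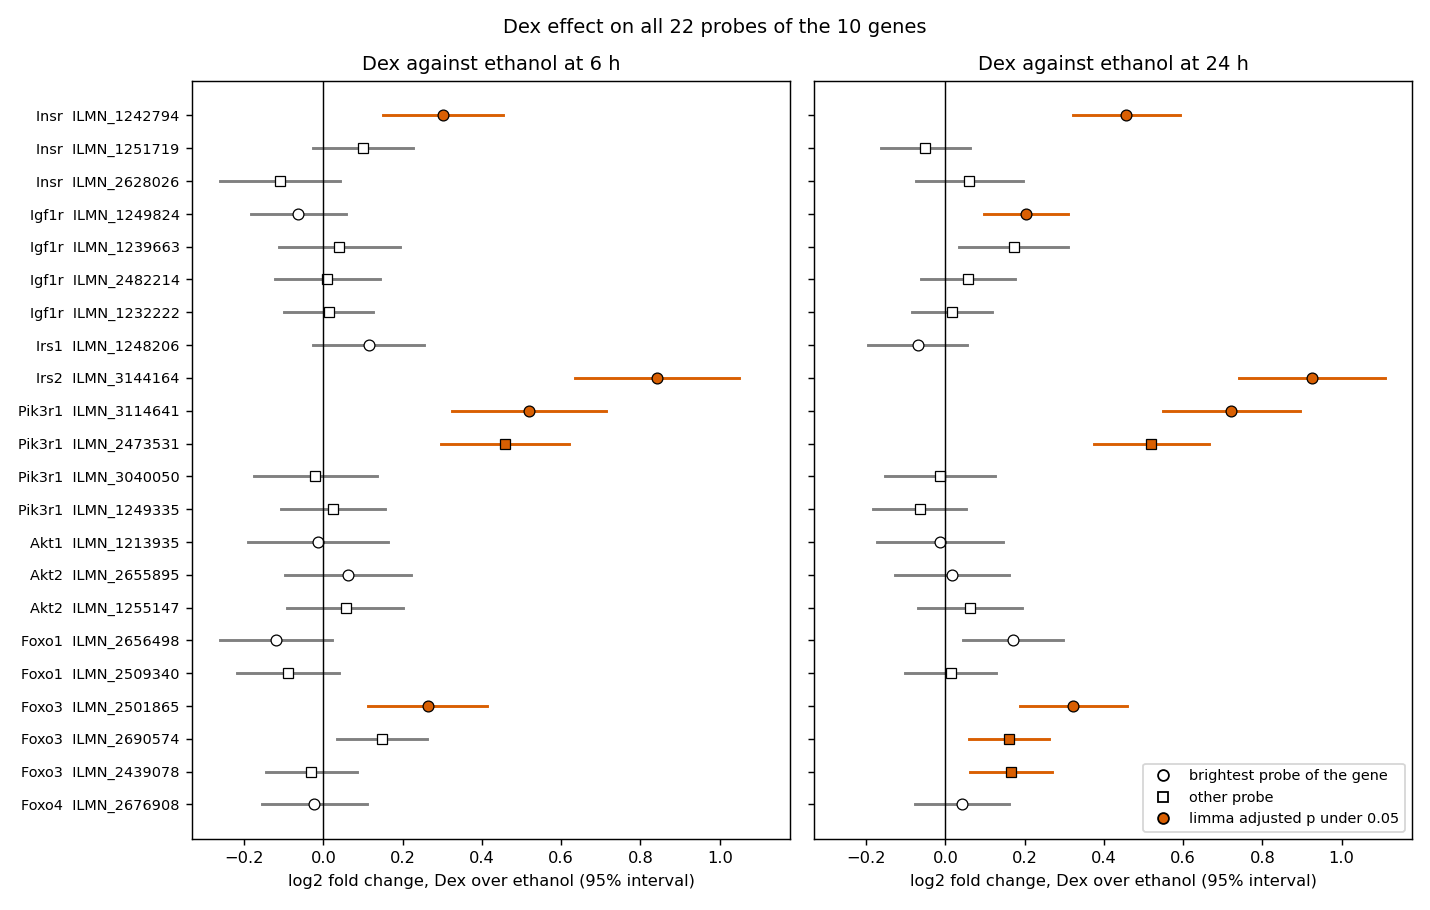
Log2 fold change of Dex over ethanol (x axis) with its 95% interval for all 22 probes (y axis) at 6 h (left) and 24 h (right), with circles for the brightest probe of a gene, squares for other probes, and orange for an adjusted p under 0.05. At 6 h 5 probes are orange, from 0.26 to 0.84, and at 24 h 8 probes are, from 0.16 to 0.93, all to the right of 0.

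Counted over probes, 5 of 22 were called higher at 6 h, against 2.98% of all probes, and 8 of 22 at 24 h, against 6.43%. By genes, the Dex and ethanol arrays did not overlap for 3 of 10 at 6 h and 5 of 10 at 24 h, each higher with Dex, against 5.59% and 8.42% of all genes. Among the genes whose brightest probe reached the upper quartile on at least 1 array, 8.61% and 13.6% were called higher. Of the members, Insr, Igf1r, Irs2, Pik3r1, Akt2 and Foxo1 reached it.

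The Dex effect itself was compared between times in the same limma fit. No member was called, against 4.69% of all genes, and Igf1r and Foxo1 had an unadjusted p under 0.05. The Igf1r effect was higher at 24 h by 0.27 (SE 0.08, adjusted p = 0.0549) and the Foxo1 effect by 0.29 (SE 0.09, adjusted p = 0.077). Both therefore missed the threshold, and Igf1r passed it under 4 of 29 alternatives. A call at 24 h alone is thus not a shown difference between times for Igf1r.

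Related genes were then set against each other within arrays, by the difference of their Dex effects, a test added after the values were seen. With 4 arrays against 4, the smallest two-sided exact permutation p is 0.0286, and with 5 against 5 it is 0.0079. The permutation test treats the arrays as independent, which may not hold, as described with the processing below. The Dex effect on Irs2 exceeded that on Irs1 by 0.73 at 6 h (exact permutation p = 0.0286, adjusted over 6 comparisons 0.0343) and by 1.00 at 24 h (exact permutation p = 0.0079, adjusted 0.0343). For the receptors, the effect on Insr exceeded that on Igf1r by 0.37 at 6 h (exact permutation p = 0.0286, adjusted 0.0343) and by 0.25 at 24 h (exact permutation p = 0.0238, adjusted 0.0343). The Insr difference fell to 0.10 and 0.04 with the probes of each gene averaged, and was then not called (exact permutation test, adjusted p = 0.103 and 0.262). Without both 24 h arrays numbered 1, its 24 h value had an adjusted p of 0.103 (exact permutation test). The effect on Foxo3 exceeded that on Foxo1 by 0.38 at 6 h (exact permutation p = 0.0286, adjusted 0.0343), while the 0.15 at 24 h was not called (exact permutation p = 0.0635, adjusted 0.0635). With the probes averaged, the Foxo3 difference at 6 h fell to 0.23, with an adjusted p of 0.0571 (exact permutation test). The Irs2 difference at 6 h stayed at 0.73, since Irs1 and Irs2 have 1 probe each. Its adjusted p became 0.0571 (exact permutation test) through the adjustment alone. With most of the array minimum subtracted, the 3 differences at 6 h and the Insr difference at 24 h each had an adjusted p of 0.0571 (exact permutation test), while Irs2 still exceeded Irs1 at 24 h. Leaving out ethanol array 2, 3 or 4 of 6 h gave adjusted p of 0.0571 (Irs2) and 0.0635 (Insr and Foxo3) at 6 h, and 0.0571 for Insr at 24 h through the adjustment alone. For Foxo3 at 6 h, leaving out ethanol array 1 or Dex array 2 also gave 0.0635. The Irs1 and Foxo3 probes were dim, so their own differences are understated in these comparisons. The size of the Irs2 excess over Irs1 therefore depends on how little the dim Irs1 probe can show. The pairs were picked with the results of the single genes known, and the adjustment over 6 comparisons does not correct for that choice.

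Around the members, the receptor-proximal adaptors and brakes had 16 of 18 listed genes measured. At 6 h 2 rose (Cblb, Dok1) and 1 fell (Socs3), and at 24 h 4 rose (Gab1, Grb10, Cblb, Igf2r) and 3 fell (Ptpn11, Socs3, Dok1). Over all genes, 4.31% rose and 4.04% fell at 6 h, and 8.05% and 7.73% at 24 h. The list's median differences were 0.05 and 0.09. Of the less bright probes, 1 of Shc1 was called lower at 24 h. At 24 h, Dok1 was not called in 16 of 30 alternatives and Ptpn11 in 9, and Dok1 at 6 h in 6. The Dok1 effect changed between times by -0.52 (limma adjusted p = 0.00737). Cblb, a ubiquitin ligase that acts on Irs1 in unloaded muscle, went from 296 ± 15.3 to 516 ± 43.7 at 6 h (SD, n = 4 each), a rise of 0.80 (SE 0.06, adjusted p = 3.5e-09), and rose by 0.34 at 24 h (adjusted p = 0.000188). Its effect was smaller at 24 h than at 6 h by a tested -0.46 (adjusted p = 0.0037). Cblb was called on 1 of its 3 probes at each time. Grb10, an adaptor that inhibits both receptors, rose at 24 h by 0.59 (SE 0.08, adjusted p = 1.61e-05), on 1 of its 3 probes. Socs3, a feedback inhibitor that binds the insulin receptor, fell by 0.35 at 6 h and by 0.32 at 24 h (adjusted p = 0.00697 and 0.0041). Igf2r, which clears IGF-II, rose by 0.32 at 24 h (adjusted p = 0.00355), on 1 of its 2 probes. The 24 h calls went from 7 to 4 (Grb10, Socs3, Cblb, Igf2r) without the near-empty residual directions. The 6 h calls went from 3 to 1 (Cblb) with most of the array minimum subtracted, and the 24 h call of Cblb was lost with its probes averaged. Gab1, Dok1 and Ptpn11 lie outside the naming rule and were named after their values were seen.

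Among the PI3K subunits, PIP3 phosphatases and PDK1, 19 of 20 were measured. Here 2 rose at 6 h (Pik3ip1, Inpp5k) and 1 fell (Pik3r3), and 3 rose at 24 h (Pik3c3, Pik3ip1, Inpp5k), beside 4.31% higher and 4.04% lower of all genes at 6 h and 8.05% and 7.73% at 24 h. The median differences were 0.07 and 0.02. Of the less bright probes, 1 of Pik3r2 was called higher at 24 h. Pik3ip1, a membrane protein that inhibits the PI3K catalytic subunit, rose by 0.49 at 6 h (SE 0.07, adjusted p = 9.7e-05) and 0.81 at 24 h (SE 0.07, adjusted p = 4.31e-09). Its change of 0.32 between times was not called (limma adjusted p = 0.0702). Inpp5k, a phosphatase that removes the PI3K lipid product in muscle, rose by 0.35 and 0.53 (adjusted p = 0.00369 and 4.77e-06). Pik3r3, another regulatory subunit, went the other way from Pik3r1 at 6 h, from 1130 ± 69.5 to 817 ± 36.4 (SD, n = 4 each), a fall of 0.47 on the log2 scale (SE 0.07, adjusted p = 0.00013). At 24 h its difference was 0.10 (adjusted p = 0.369), and the change between times was 0.56 (adjusted p = 0.00197). Pik3c3, the class III kinase of autophagy, rose at 24 h by 0.15 (adjusted p = 0.0493), which was not called in 17 of 30 alternatives.

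In the list of Akt regulators and substrates, all 22 genes were measured, and the median differences were 0.01 at 6 h and -0.02 at 24 h. By limma on the brightest probes, none was called at 6 h, beside 4.31% of all genes higher and 4.04% lower, and 3 had an unadjusted p under 0.05. At 24 h 2 were called, 1 in each direction, beside 8.05% of all genes higher and 7.73% lower. Of the less bright probes, 1 of Trib1 was called higher at both times and 1 of Mdm2 lower at 6 h. Mapkap1 and Mlst8 each had 1 such probe called higher at 24 h. Trib3, a pseudokinase that binds Akt and is a target of the ATF4 stress response, averaged 1245 ± 716 in ethanol and 338 ± 129 with Dex at 24 h (SD, n = 5 each). It fell by 1.79 (SE 0.27, adjusted p = 6.88e-05), and at 6 h differed by -0.55 (adjusted p = 0.339). The change of -1.24 between times was not called (limma adjusted p = 0.0901). Phlpp1, a phosphatase that switches Akt off, rose at 24 h by 0.22 (SE 0.06, adjusted p = 0.0108), and this call was lost without the near-empty residual directions.

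All 35 genes of the list of FoxO6, FoxO regulators and FoxO targets were measured. At 6 h 7 rose (Ep300, Fbxo32, Trim63, Sesn1, Pdk4, Bcl2l11, Txnip) and 2 fell (Ccng2, Lpl). At 24 h 7 rose (Fbxo32, Trim63, Sesn1, Pdk4, Bcl2l11, Gabarapl1, Lpl) and 2 fell (Ywhab, Sesn3). The shares over all genes were 4.31% higher and 4.04% lower at 6 h, and 8.05% and 7.73% at 24 h. The median differences were 0.05 and 0.02. The 6 h call of Bcl2l11 (adjusted p = 0.0486) was lost in 19 of 30 alternatives. Bcl2l11 was called on 1 of its 4 probes and Lpl on 1 of its 2 at each time. Ep300 was called on 1 of 4 at 6 h and Sesn3 on 1 of 2 at 24 h. Of the less bright probes, 1 of Xpo1 was called higher and 1 of Ywhab lower at 6 h, and 1 of Ywhaz higher at 24 h. By the naming rule, the 4 described are Fbxo32, Trim63, Sesn1 and Pdk4, and the other names were added after their values were seen. Pdk4, the kinase that shuts pyruvate out of oxidation, rose by 1.78 at 6 h (SE 0.17, adjusted p = 5.75e-08) and by 2.29 at 24 h (SE 0.15, adjusted p = 6.16e-11). Sesn1, a stress-induced inhibitor of mTORC1, rose by 1.32 (adjusted p = 5.9e-10) and 1.46 (adjusted p = 7.49e-12). Fbxo32, the atrophy ubiquitin ligase atrogin-1, rose by 0.60 (adjusted p = 0.000116) and 1.14 (adjusted p = 5.14e-10), and its effect grew by 0.54 between times (adjusted p = 0.0158). Trim63, the atrophy ligase MuRF1, rose by 0.93 (adjusted p = 2.06e-05) and 0.47 (adjusted p = 0.0067). Its change of -0.46 between times was not called (limma adjusted p = 0.128). Lpl fell by 0.67 at 6 h and rose by 0.56 at 24 h, a change of 1.23 (limma adjusted p = 0.00049). Sesn3, also a FoxO target, fell by 0.32 at 24 h (adjusted p = 0.00625), a call that was lost with its probes averaged.

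**Figure D4:**
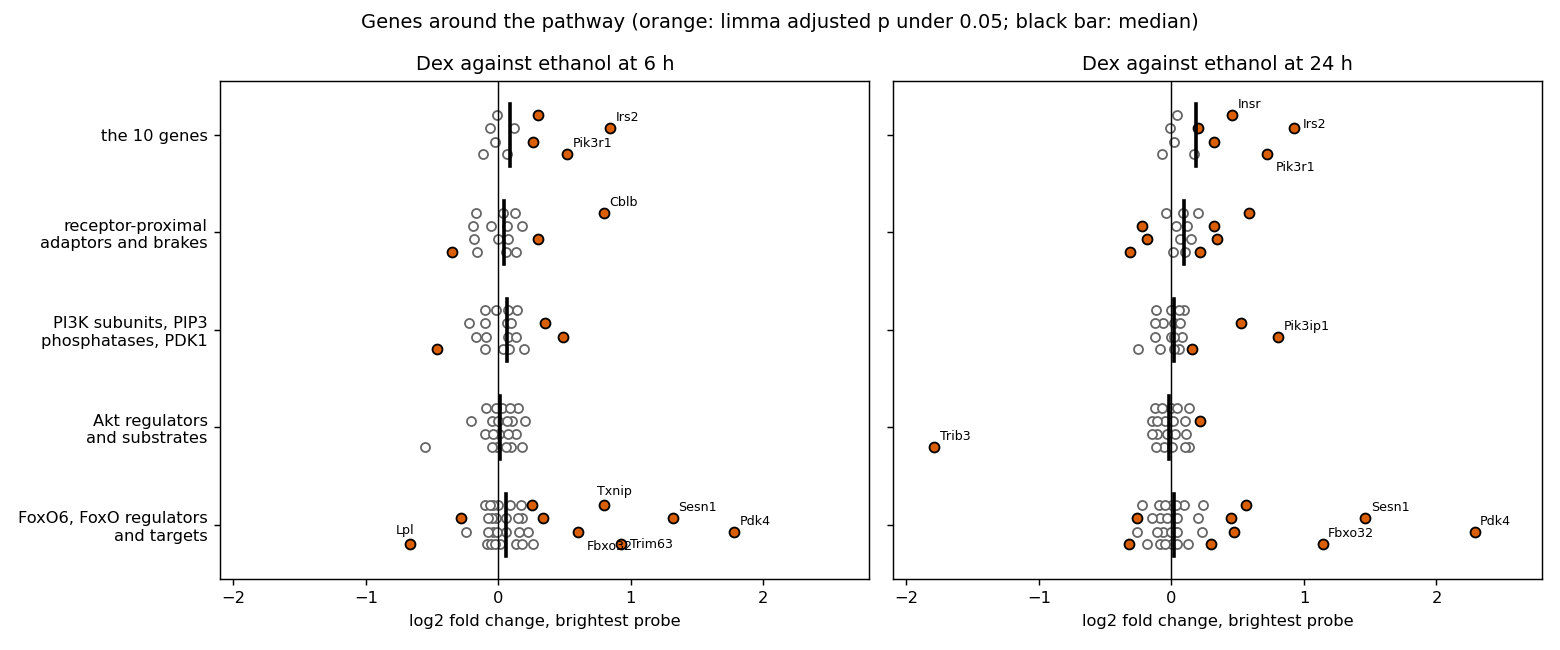
Log2 fold change of Dex over ethanol for the brightest probe of each gene (x axis), in the 10 genes and the 4 surrounding lists (rows), at 6 h (left) and 24 h (right), with orange for an adjusted p under 0.05, open circles otherwise, a black bar for the median, and vertical position within a row only to separate points. Medians lie between -0.02 and 0.19, and single genes such as Pdk4 (1.78 and 2.29) and Trib3 (-1.79 at 24 h) lie far from them.

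Markers of other cell states were read beside these results. Of 6 measured markers of dividing cells or myoblasts, Myf5 rose at 6 h by 0.33 (adjusted p = 0.02), on a probe below the upper quartile of all arrays. Cdk1 and Pcna rose at 24 h by 0.43 and 0.24 (adjusted p = 0.000398 and 0.0216), Cdk1 on 1 of its 3 probes. Top2a differed by -0.14 at 6 h and -0.19 at 24 h, and Pcna by -0.23 at 6 h, without a call (adjusted p = 0.322, 0.0612 and 0.0779). Over all genes, 4.31% rose and 4.04% fell at 6 h, and 8.05% and 7.73% at 24 h. The sum of the 6 was 1050.3 to 1221 in ethanol and 1168 to 1374 with Dex at 24 h, and 1536 to 1760 and 1446 to 1713 at 6 h. Of the 10 myotube markers none was called at 6 h by its brightest probe. At 24 h Ckm and Actc1 rose by 0.30 and 0.33 and Myog fell by 0.32 (adjusted p = 0.0124, 0.00594 and 0.0117). Of the less bright probes, 2 of Ttn were called higher and 1 lower at 6 h, and 1 of Myh8 higher at 24 h. The myotube sums at 24 h were 142062 to 158596 in ethanol and 145827 to 157113 with Dex, and at 6 h 187309 to 188940 and 189552 to 198881. All 6 adipocyte-like, 5 osteoblast-like and 4 endothelial-like markers and 4 of 5 macrophage-like markers stayed below the upper quartile on all arrays, and of these Bglap was called, lower by 0.26 at 6 h (adjusted p = 0.0111). The part of these markers in the changes of the 10 genes was not tested.

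Genes with a pattern most like Irs2 and Pik3r1 were found by Pearson r over the 18 arrays, after the mean of each time was subtracted, among 11843 other genes. For Irs2 they were Rubcnl (r = 0.966), Phka2 (0.964), H6pd (0.959), Ehd3 (0.958) and Lamc1 (0.951). For Pik3r1 they were Znrf1 (0.941), Rasa3 (0.936), Tent5b (0.936), Pdk4 (0.931) and Ifi207 (0.929). These r include the Dex effect that all of the listed genes share. Of the 10 names, Pdk4 is also in the FoxO list above.

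Of the 10 genes, 8 had at least 1 RefSeq promoter window, 13 windows in all. The letters AGAACA, the hexamer that repeats in the glucocorticoid receptor's element, were searched on both strands. The hexamer was in none of the 13 and in 16.1% of all windows. The full site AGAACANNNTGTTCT, which contains that hexamer, was also in none, and 3 of the 32851 windows held it. The FoxO site GTAAACA was in 1 window, of Akt1, and in 3.17% of all. These are letters in 250 bases and say nothing of binding elsewhere. Windows of Insr and Foxo4 were not analysed here.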

How the data were processed

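RNA of 18 samples was read on Illumina mouseWG-6 arrays. The deposited values are linear intensity values; the arrays were preprocessed with lumi by the authors, per the labels' design text and the submitters' processing notes, with the background and scaling settings not given in the sources used here. They were taken to log2 here, with no pseudocount, because the deposited table is not on a log2 scale. Symbols came from the platform annotation, updated through RefSeq for 34807 of the 34885 probes with 1 symbol; 18 probes had several and 10378 none. One limma 3.58.1 fit in R 4.3.3 used a mean per group over all 18 arrays, with 14 residual degrees of freedom, and was tested on simulated data over 45281 probes (at 6 h and 24 h, log2 changes of 0.25 were recovered in 18% and 32% of cases and changes of 0.5 in 90% and 96%, and 7.23% and 4.65% of the calls were false). The simulated arrays were drawn independently of each other, which the real arrays may not be, so these shares may not carry over. Changes were placed only in probes above the median probe, so the recovery does not cover dimmer ones. They were placed in 50 probes per size and comparison, far fewer than were called in the real data. The adjustment was therefore stricter in the simulation, and the recovered shares may differ in the real fit. Members and lists were chosen with earlier results of these data known. One listed gene is not reported here. Named list genes are up to 4 per list with the smallest p among called ones.

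Around their group means, the correlation of same-numbered ethanol and Dex arrays lay in the range -0.109 to 0.17 (6 h) or -0.914 to -0.181 (24 h). Replicate numbers were not taken to pair samples, because no label says that a number marks a shared culture, batch or day. With correlations down to -0.914, same-numbered arrays of 24 h cannot be taken as independent of each other. The cause was not tested. Deviations from the group means filled 5 of 6 possible directions at 6 h and 5 of 8 at 24 h, over the 1126 brightest probes, so the fit counts more degrees of freedom than the arrays carry, and its p-values may be too small. The alternatives were other backgrounds, pseudocounts, filters, probe choices, array weights, single arrays left out, a replicate block and those directions as covariates. The number of arrays limits the precision.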

Additional observations from a re-analysis of the deposited data

Results flagged for a closer look

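Of 88 sets of replicate values (22 probes in 4 groups), 7 held 1 array that stood apart from the others by Dixon's criterion, and chance alone gives about 1 in 20. Except for the Igf1r probe, each stayed below the upper quartile on all 18 arrays. The Insr probe ILMN_2628026 read 89.9 on Dex array 4 of 24 h, against 76.9 to 79.6 on the others of the group. The Igf1r probe ILMN_1239663 read 154.6 on ethanol array 3 of 6 h, against 135.6 to 138.5. Irs1 read 109.0 on ethanol array 1 of 24 h, against 99.6 to 101.1. Akt1 read 96.3 on Dex array 1 of 6 h, against 109.9 to 111.6. The second Akt2 probe read 86.4 on ethanol array 5 of 24 h, against 73.1 to 76.3. The second Foxo1 probe read 97.6 on Dex array 4 of 6 h, against 84.4 to 86.5. The Foxo3 probe ILMN_2690574 read 70.9 on Dex array 4 of 24 h, against 81.1 to 82.1, and is 1 of the 3 Foxo3 probes called at that time.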

How the results depend on the processing

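Over the 10 genes and the second bright Pik3r1 probe, 946 of 970 alternative values kept their direction, where called, and their side of the threshold, 15 lost a call, 9 gained one and none of the called values reversed. The 4 genes called at 6 h became 2 (Irs2 and Pik3r1) with 90% of the array minimum subtracted, with the mean of the probes of a gene, and with the near-empty residual directions as covariates, and were 3 to 4 without single arrays. The 5 called at 24 h were 5 to 6 without single arrays. For the change between times, 0 became 1 (Igf1r) among probes above the median and with a pseudocount of 50, and 0 to 1 without single arrays. With the replicate block, 3 genes were called at 6 h, 5 at 24 h and 0 between times. The Foxo3 call at 6 h was then lost (adjusted p = 0.0513), and no other member's call changed. Over all probes, the residual directions as covariates took the calls from 2836 to 1378 at 6 h, from 5726 to 2842 at 24 h and from 1675 to 371 between times. Array weights gave 1741 at 6 h and 11329 at 24 h, the arrays of 6 h alone 1431, and the block 904 between times. Counts with 1 value per gene run over fewer features. At 24 h the Akt list had 5 called genes with array weights and 4 with the arrays of that time alone, and the FoxO list 15 and 16, against 2 and 9. The cause of these changes was not tested. Dim probes limit what can be said of Irs1, Akt1, Foxo3 and Foxo4, and the median filter left Foxo4 without a value.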
